A study of Drosophila melanogaster with 4 samples.

Results

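Primary pigment cells form a collar around the cone cells at the top of each unit eye (ommatidium) of *Drosophila*, with a pair of them to each unit. In the single-cell RNA sequencing (scRNA-seq) of dissociated adult eyes described here, 115 of 34606 cells that passed quality limits were primary pigment cells. They were chosen by measured values: a cell had at least 3 unique molecular identifiers (UMIs, each marking a captured RNA molecule) over the marker genes *wrapper*, *sxe2*, *CG31199* and *Obp83cd* together, at least 2% of its UMIs from *Pdh*, under 2% from *ninaE*, at most 2 UMIs of *ct* and 0 UMIs of *fne*. The cells came from whole eyes of wild-type *Canton-S* flies, pooled within a library and dissected and dissociated with the transcription inhibitor Actinomycin D present in every library. Males of 1, 3 and 7 days after eclosion and females of 1 day gave 1 library each. Members numbered 44, 48 and 20 in males, by rising age, and 3 in females.

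Pigment cells wrap the light-sensing photoreceptors and screen them from stray light, and they handle the retinoid chromophore of rhodopsin. Screening pigments of *Drosophila* are of 2 chemical kinds, the red pteridines and the brown ommochromes. Cone cells and primary pigment cells lie directly under the corneal lens and secrete it during pupal life, whereas secondary and tertiary pigment cells fill the lattice between neighbouring ommatidia. Of the markers in the rule, *wrapper* encodes a cell surface protein of the immunoglobulin family known from glia, *sxe2* a lipase-like enzyme and *Obp83cd* an odorant-binding protein. *Pdh* encodes a retinol dehydrogenase of pigment cells, *ninaE* the rhodopsin of the outer photoreceptors R1-6, *ct* the homeodomain factor Cut of cone cells and *fne* an RNA-binding protein of neurons.

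The members made up 0.317% (exact Clopper-Pearson 95% interval 0.231 to 0.426%) of the kept cells of the 1-day male library, 0.608% (0.449 to 0.806%) of the 3-day, 0.333% (0.204 to 0.514%) of the 7-day and 0.0439% (0.00905 to 0.128%) of the female library. Among members and cells that met the other criteria with 0 marker UMIs, the share was 1.16%, 3.87%, 2.25% and 0.327% in the same order. This share leaves out 144 cells with 1 marker UMI and 34 with 2 that met the other criteria. These intervals cover counting error only, and with 1 library for each age and sex the shares cannot be compared by a test. A minimum of 3 marker UMIs is met more easily in deeper cells, and the kept cells of the female library, with the fewest members, had the highest median depth, at 6794 UMIs, against 1986 to 4104 UMIs in the male libraries. The 4 libraries held 8765 barcodes (female) and 6335 to 16275 barcodes (males) called as cells, with 17654226 to 98373676 UMIs each. Pairs of libraries shared 12 to 37 barcodes, none of them a member in both. No doublet caller was run, and whether single members hold the RNA of more than 1 cell was not tested.

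The rule was narrow on its marker side and its edge was populated. Of 170 kept cells with at least 3 marker UMIs, 37 failed on *ct*, 15 on *Pdh*, 13 on *ninaE* and 11 on *fne*, some of them on several. Just inside the limit, 15 members had exactly 3 marker UMIs, and just outside it 34 cells met all other criteria with 2. In the 1-day male library these groups had a median of 22.6% of their UMIs from *retinin* in the 6 cells with 3 marker UMIs and 6.74% in the 17 cells with 2. In the 3-day male library the medians were 25.7% in 6 cells and 17.7% in 9 cells. Among the members, *sxe2* was seen in 108 cells, *CG31199* in 103, *wrapper* in 68 and *Obp83cd* in 50. All 4 markers were seen together in 38 members and a single one in 11. When members were chosen on the other 3 markers only, the marker left out was still higher than in secondary and tertiary pigment cells, by 9.01 ± 0.38 (log2 fold change ± SE) for *wrapper*, 8.60 ± 0.33 for *sxe2*, 7.60 ± 0.30 for *CG31199* and 9.35 ± 0.42 for *Obp83cd* (3 male libraries, edgeR quasi-likelihood test, adjusted p at most 2.1e-08). The cells they were set against had no UMI of the other 3 markers. The rule was also chosen with earlier results of these libraries known, so these values are no independent evidence for the markers.

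Other classes were built by gates to set the members against. Secondary and tertiary pigment cells met the same limits with 0 UMIs of the 4 markers (3736, 1193 and 869 cells in males by rising age, and 915 in females). Cone cells had at least 3 UMIs of *ct* and 1 of the cone marker *CG5597*, under 2% of their UMIs from *ninaE*, and 0 UMIs of *fne* and of the glial gene *repo* (35, 21, 15 and 2 cells). R1-6 cells had at least 4% of their UMIs from *ninaE*, under 0.5% from the other rhodopsin genes *Rh3*, *Rh4*, *Rh5* and *Rh6* together, under 2% from *Pdh*, and 0 UMIs of *fne* and of the 4 markers (3914, 3538, 2386 and 3017 cells). UMIs were summed over the cells of a class in a library, and these sums, not cells, were the replicates of the tests. With only 3 female members, the sums of primary pigment cells come from the 3 male libraries, which differ in age, while the spread is estimated over 14 sums that include the female secondary and tertiary pigment and R1-6 cells. Calls required both an adjusted p below 0.05 and a change of more than 1 on the log2 scale, and the 14 genes used in any gate were left out of the calls.

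Much of the RNA of a primary pigment cell came from 3 genes. *retinin*, which encodes a protein of the corneal surface, took a median of 32.4% of a member's UMIs at 1 day (lowest 0.0103%, highest 55.2%), 32.5% at 3 days (4.88 to 48.5%) and 27.1% at 7 days (12.1 to 34.0%). In the 3 female members the shares were 0.234%, 39.8% and 42.1%. *Nplp3*, named as a neuropeptide-like precursor, took medians of 16.9%, 18.8% and 13.7% in males of 1, 3 and 7 days. *Pdh*, which the rule used, took medians of 8.78%, 12.2% and 14.9%, against 13.6%, 16.3% and 16.3% in secondary and tertiary pigment cells. Together the 3 genes held a median of 57.96%, 66.3% and 56.8% of a member's UMIs, against 14.0%, 16.7% and 16.5% in secondary and tertiary pigment cells. The level of every other gene, as a part of all UMIs, is lower by this share alone, and the fitted fold changes therefore scale each sum by the trimmed mean of M values (TMM).

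**Figure D1:**
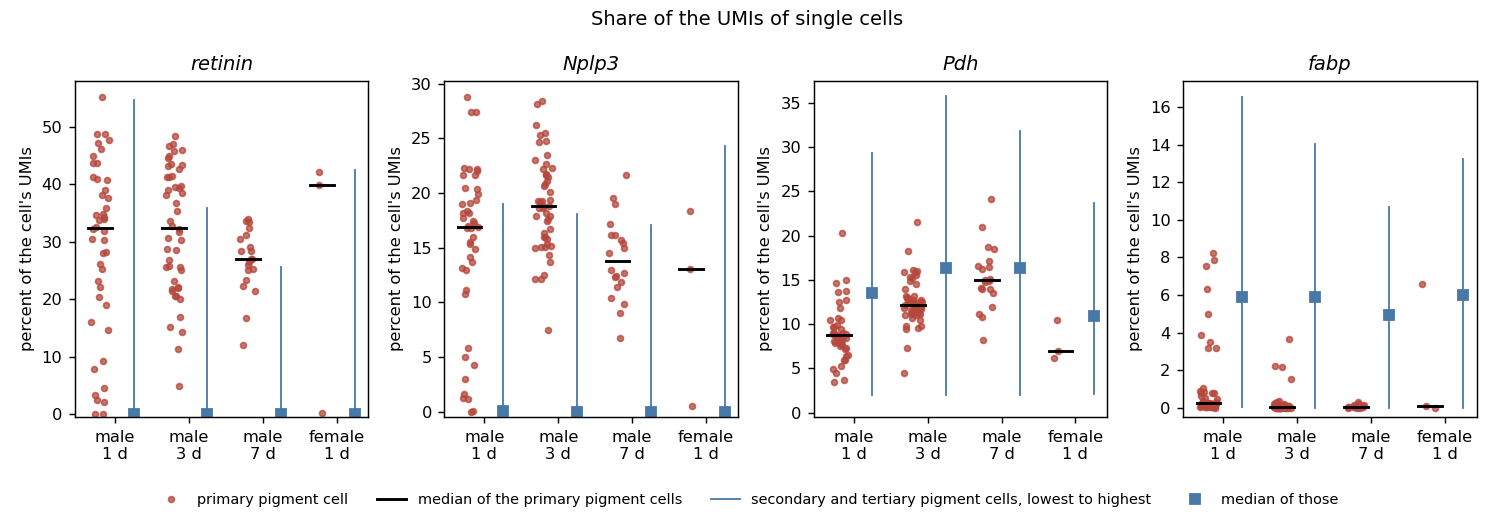
Percent of a cell's UMIs from *retinin*, *Nplp3*, *Pdh* and *fabp* in each of the 115 primary pigment cells (red points, black line at their median), by library, beside the lowest-to-highest range and the median (blue) of the secondary and tertiary pigment cells. Most members lie far above the blue median for *retinin* and *Nplp3* and far below it for *fabp*, and a set of 1-day members lies near the blue medians of *retinin*, *Nplp3* and *fabp*.

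Levels of summed cells are given below in CPM, the UMIs of a gene per 1000000 UMIs of that class and library, which count captured transcript ends and are not divided by gene length. Summed over members, *retinin* stood at 324500, 370300 and 288500 CPM in males of 1, 3 and 7 days, against 2079, 2080 and 1579 in secondary and tertiary pigment cells, 159400, 325600 and 160300 in cone cells and 225, 207 and 160 in R1-6. *Nplp3* stood at 150200, 185300 and 148000 CPM, against 1212, 1181 and 871.9 in secondary and tertiary pigment cells. Every male library of primary pigment cells was thus more than 100-fold above the other pigment cells for both genes, and the fitted log2 fold changes were 7.91 ± 0.48 for *retinin* (adjusted p 3.0e-12) and 7.74 ± 0.45 for *Nplp3* (adjusted p 1.3e-12). At least 1 UMI of *retinin* was present in 78.1%, 59.3% and 47.8% of secondary and tertiary pigment cells, with median depths of 1395.5, 1705 and 1323 UMIs, and in 73.2%, 49.8% and 27.7% of R1-6 cells, with median depths of 7381.5, 4031 and 1922.5 UMIs. A single UMI of *retinin* therefore did not mark a class. At a share of 5% of the UMIs or more, *retinin* was found in 38 of 44, 47 of 48 and 20 of 20 male members and 2 of 3 female members. In secondary and tertiary pigment cells it was found at this share in 28 of 3736, 12 of 1193 and 4 of 869 male and 4 of 915 female cells. These 48 cells had no UMI of the 4 markers because the gate of their class required it.

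The other genes with the largest shares of members' UMIs were mitochondrial (*mt:CoII*, *mt:CoI*, *mt:CoIII* and *mt:ATPase6*), *fabp*, which encodes a fatty acid-binding protein, *rdhB*, a retinol dehydrogenase of the visual cycle, and *GstE12*, a glutathione S-transferase. *rdhB* was at 4517, 4692 and 4077 CPM in primary pigment cells of 1, 3 and 7 days, against 7766, 9771 and 7327 in secondary and tertiary pigment cells, a fitted log2 fold change of -0.31 ± 0.28 (adjusted p 0.50). *GstE12* was at 4426, 2859 and 2108, against 12230, 15070 and 13760, and was called lower at -1.5 ± 0.35 (adjusted p 0.0029), a call lost without the 3-day male library (-1.5, adjusted p 0.079). Members also showed fewer genes at a fixed depth. Members had median depths of 4407.5, 8336 and 3609.5 UMIs in the male libraries, above those of secondary and tertiary pigment cells. Thinned to 1000 UMIs a cell, they showed medians of 257, 231 and 289 genes (5, 2 and 1 shallower cells left out), against 432, 432 and 456 in secondary and tertiary pigment cells (1399, 369 and 346 left out). Before thinning the medians were 811, 1101.5 and 733 genes in primary pigment cells and 545, 620 and 543 in secondary and tertiary pigment cells.

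The members were not uniform, and *fabp* divided them. *fabp* made up a median of 5.88%, 5.90% and 4.94% of the UMIs of secondary and tertiary pigment cells. It reached 1% in 15 members, 10 of them in 1-day males, 4 in 3-day males, 0 in 7-day males and 1 in the females, and stayed under 1% in 100. In 1-day males the 10 members with *fabp* at 1% or more had medians of 3.99% *retinin*, 4 marker UMIs and 7932.5 UMIs in all. The 34 members with less had medians of 34.4% *retinin*, 10 marker UMIs and 3189 UMIs. In all libraries, of the 8 members in which *retinin* was under 5%, 7 had *fabp* at 1% or more. *CG1561* and *CG6870* are further genes abundant in secondary and tertiary pigment cells and were picked after their values were seen. The TMM-scaled ratios of primary over secondary and tertiary pigment cells at 1, 3 and 7 days were 0.345, 0.0877 and 0.0109 for *fabp*. They were 0.43, 0.123 and 0.0112 for *CG1561* and 0.391, 0.108 and 0.0117 for *CG6870*. These are values of library sums, and neither gene was compared between single members. *CG1561* was at 3088, 636.7 and 73.97 CPM in members of 1, 3 and 7 days, against 10860, 9337 and 8323 in secondary and tertiary pigment cells. Whether the members with *fabp* at 1% or more are single cells was not tested. Results that rest on them are given below also for the 100 members with *fabp* under 1%, a limit set after the data were seen.

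Against secondary and tertiary pigment cells, 444 of 6623 tested genes (6.70%) were higher and 717 (10.8%) were lower in primary pigment cells. Of the 444, 384 were higher in all 3 male libraries. Of the 717, 39 had no UMI in any male member. The balance of higher and lower calls depended on scaling. Higher genes were 38.2% of the calls with TMM, 53.6% with relative log expression (RLE) size factors (534 higher, 8.06% of the genes tested, and 463 lower, 6.99%) and 58.7% with DESeq2 (566 higher, 8.55%, and 398 lower, 6.01%). The median log2 fold change of all genes was -0.39 with TMM, -0.15 with RLE and -0.13 with DESeq2, so levels of lists below are also given relative to this median. Without the 3-day male library 271 genes were higher and 265 lower. With only members under 1% *fabp*, 505 (7.55%) were higher and 937 (14.0%) lower. On counts simulated from a single profile pooled over all sums, with a fixed spread, 96 of 100 genes raised 4-fold and 65 of 100 genes lowered 4-fold were recovered. Apart from the changed genes the simulated classes did not differ, so these rates need not hold for the real comparison.

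The 10 genes most raised in primary pigment cells were at levels of 18.5 to 2125 CPM there and nearly absent from the other pigment cells. *Crys* encodes crystallin, the main known structural protein of the corneal lens, and stood at 2125, 540.4 and 490 CPM in members of 1, 3 and 7 days, against 7.62, 0 and 2.95 in secondary and tertiary pigment cells. Its log2 fold change was 8.71 ± 0.50 (adjusted p 1.3e-12). It had the same direction in all 3 male libraries, which the choice of these 10 genes required. *SecCl*, a ligand-gated chloride channel of secretory tissues, stood at 84.6, 105.5 and 323.6 CPM, against 0, 0.940 and 0.589 (log2 fold change 9.16 ± 0.51, adjusted p 1.3e-12). *Cyp4d20*, a cytochrome P450, stood at 81.5, 87.0 and 64.7, against 0.103, 0 and 0. Its 80 UMIs in male members faced 1 UMI in the other pigment cells, a ratio of 1210 (exact interval 211 to 48300 from counting error). Such ratios, and folds at the floor below, are taken between CPM over the 3 male libraries together, without TMM. *CG42329* and *CG31871* faced 2 UMIs and 1 UMI, with ratios of 430 (114 to 3640) and 498 (83.4 to 20300). *CG7906* was at 1094, 503.4 and 545.5 CPM, against 2.27, 1.25 and 3.54. *CG43091*, *CG13041*, *CG10553* and *PGRP-SB1*, a peptidoglycan recognition protein, completed the 10, with log2 fold changes of 8.64, 8.46, 8.09 and 8.11. All 10 calls held without each library in turn and in the members under 1% *fabp*.

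The 5 most lowered genes, *CG14495*, *CG3348*, *Eip63F-1*, *Vmat* and *Phk-3*, had 0 UMIs in male members. Set against a floor of 3 UMIs over the 3 male libraries, they were at least 17.1-, 10.1-, 10.9-, 7.80- and 9.21-fold lower in CPM than in secondary and tertiary pigment cells. The calls of *CG14495*, *CG3348* and *Vmat* were lost after removal of 5% free RNA (adjusted p 0.17, 0.052 and 0.076). *Vmat* encodes the vesicular monoamine transporter. *CG14495* reached 33.7, 91.8 and 91.3 CPM in the other pigment cells of 1, 3 and 7 days, so the few UMIs of the primary pigment cells set the size of these limits. *fabp* itself was at 15180, 3056 and 443.8 CPM in primary pigment cells, against 66540, 62840 and 51320, a log2 fold change of -3.71 ± 0.68 (adjusted p 2.3e-04), a call lost without a library term (0.085).

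Lens and apical matrix genes were mostly higher in primary pigment cells. Of 15 genes in the list, 14 passed the filter on low counts, and 8 were higher and 3 lower, where 6.70% of all genes were higher and 10.8% lower. The median log2 fold change of 2.01 lay 2.39 above that of all genes. Beside *Crys* and *retinin*, *dpy*, which encodes a giant matrix protein that anchors cuticle to cells, was at 1564, 881 and 822.9 CPM in members of 1, 3 and 7 days, against 45.3, 6.89 and 7.66 in secondary and tertiary pigment cells (log2 fold change 6.55 ± 0.42, adjusted p 7.1e-12). *pio*, a zona pellucida-domain partner of *dpy*, was at 811.9, 673.7 and 675, against 108, 86.2 and 84.2. The chitin-binding protein gene *obst-E* was at 721, 790.3 and 989.3, against 5.66, 5.64 and 10.6, and *Gasp*, another chitin-binding protein gene, at 1141, 1066 and 628.7, against 232.4, 61.1 and 27.7. These 4 genes were higher in all 3 male libraries, as were 384 of the 444 higher genes. *qsm* and *obst-A* were also called higher, but at few UMIs, and their calls were lost without the 3-day male library (adjusted p 0.41 and 0.26), that of *obst-A* also without the 1-day male library (0.14) and with DESeq2 (0.055). Both were also lost after removal of 5% free RNA (0.063 and 0.079) and without a library term (0.096 and 0.06).

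Others of the list, 3 genes, went the other way. *verm*, a chitin deacetylase, was at 37.6, 13.0 and 0 CPM in primary pigment cells, against 274.7, 173.3 and 50.7 in secondary and tertiary pigment cells. *Cpr72Ec*, a chitin-binding cuticular protein, was at 28.2, 18.5 and 18.5, against 148.9, 162 and 503.7, with log2 fold changes of -2.68 for both. *Idgf4*, a chitinase-like growth factor, had 1 UMI in male members, a ratio of 0.0151 (exact interval 0.000383 to 0.0845), and lost its call after removal of 5% free RNA (adjusted p 0.088). Its relative *Idgf6* was at 354.2, 412.7 and 351.3 CPM in primary pigment cells, against 498.1, 445.5 and 344.6, and was not called (log2 fold change 0.31 ± 0.30, adjusted p 0.53). *serp*, the other chitin deacetylase of the list, had 0 UMIs in members and 2.95 to 6.80 CPM in the other pigment cells, and was not called (adjusted p 0.10).

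**Figure D2:**
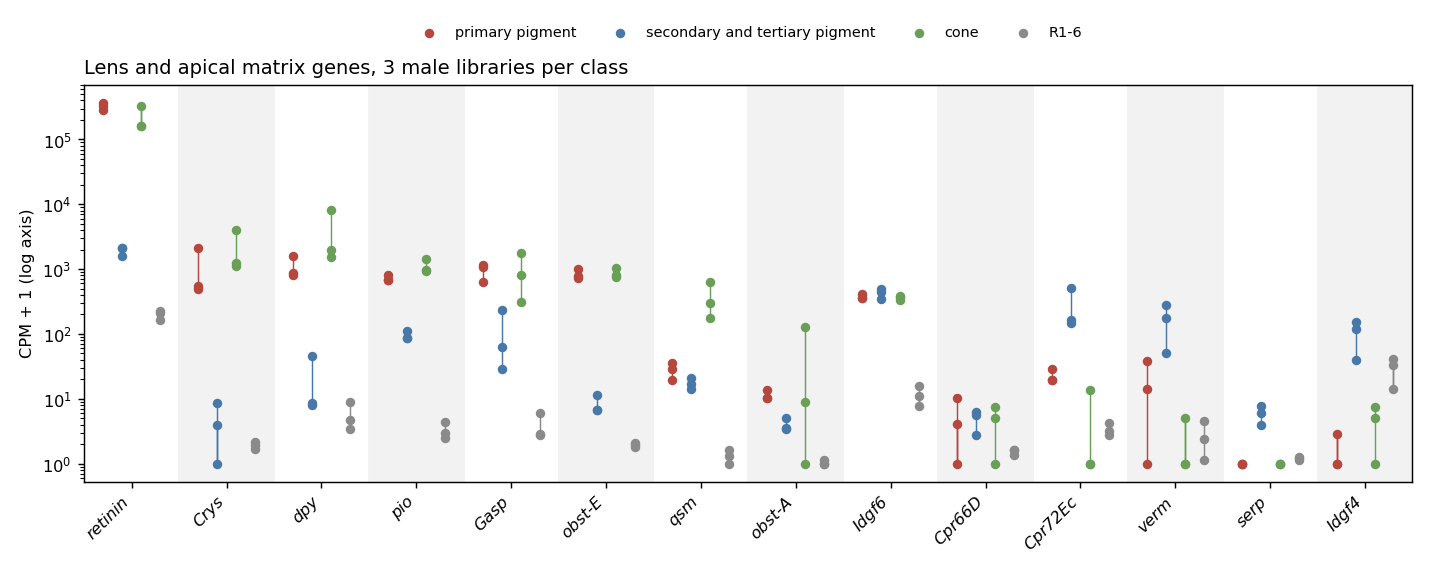
CPM plus 1 on a log axis for the lens and apical matrix genes that passed the filter, in primary pigment (red), secondary and tertiary pigment (blue), cone (green) and R1-6 (grey) cells, with 1 point for each male library and a line from the lowest to the highest. *retinin*, *Crys*, *dpy*, *pio*, *Gasp* and *obst-E* are high in primary pigment and cone cells alike, and *Cpr72Ec*, *verm* and *Idgf4* are highest in secondary and tertiary pigment cells. The gate of these cone cells did not bar primary pigment markers.

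Eye pigment synthesis was split between the pigment classes. Of 14 genes of pteridine and ommochrome synthesis and import, all 12 that passed the filter were called, 4 higher and 8 lower in primary pigment cells (median log2 fold change -1.5, which is 1.12 under the median of all genes). The shares over all genes were 6.70% higher and 10.8% lower. *DhpD*, dihydropterin deaminase, a pteridine branch enzyme, was at 445.1, 381.3 and 610.2 CPM in members of 1, 3 and 7 days, against 7.21, 13.8 and 20.6 in secondary and tertiary pigment cells (log2 fold change 5.78 ± 0.37, adjusted p 7.1e-12). *v*, tryptophan dioxygenase, which starts ommochrome synthesis, was at 37.6, 35.2 and 74.0, against 0.515, 0.313 and 0.589 (7.00 ± 0.61, adjusted p 1.9e-09). *cd*, a peroxidase of the last step to brown pigment, was at 43.9, 13.0 and 37.0, against 0.412, 0 and 0 (7.46 ± 0.71, adjusted p 8.95e-09). *kar*, a transporter-like gene of the ommochrome pathway, was higher by a smaller 1.78 ± 0.34 (adjusted p 3.9e-04). *DhpD*, *v* and *cd* were higher in all 3 male libraries, as were 384 of the 444 higher genes.

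The other tested genes of pteridine synthesis were lower. *Pu*, GTP cyclohydrolase, was at 2386, 342.4 and 111 CPM in members, against 8687, 3128 and 1594 (-2.21 ± 0.34, adjusted p 2.7e-05). *se*, pyrimidodiazepine synthase, was at 1931, 157.3 and 27.7, against 7482, 2921 and 2346 (-3.02 ± 0.54, adjusted p 1.7e-04). *cl*, *pr* and *Hn* were lower by 2.40, 1.45 and 1.73 on the log2 scale. The pigment precursor transporters *bw*, *st* and *w* were lower as well, at -2.46, -1.55 and -1.12. The call of *w* was lost with RLE, with DESeq2 and without the 1-day or 3-day male or the female library (adjusted p 0.062, 0.16 and 0.061 without a library), and that of *st* with DESeq2 and without the 3-day male library (0.17). Both were also lost with 2 classes only (0.16 and 0.13). Without a library term the calls of *Pu*, *se*, *pr*, *kar* and *w* were lost, at log2 fold changes of -1.94, -2.11, -1.39, 1.41 and -1.33 (adjusted p 0.21, 0.24, 0.086, 0.077 and 0.15). All 12 calls held in members under 1% *fabp*. Of 10 genes of pigment granule transport, 0 were called with edgeR and 0 with DESeq2, while 2 (both lower) had an unadjusted edgeR p under 0.05. *Rab32*, a small GTPase of pigment granules, was at 1875, 1340 and 1276 CPM, against 5231, 3804 and 3220, with a log2 fold change of -0.83 ± 0.27 (adjusted p 0.028) short of the limit on size.

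**Figure D3:**
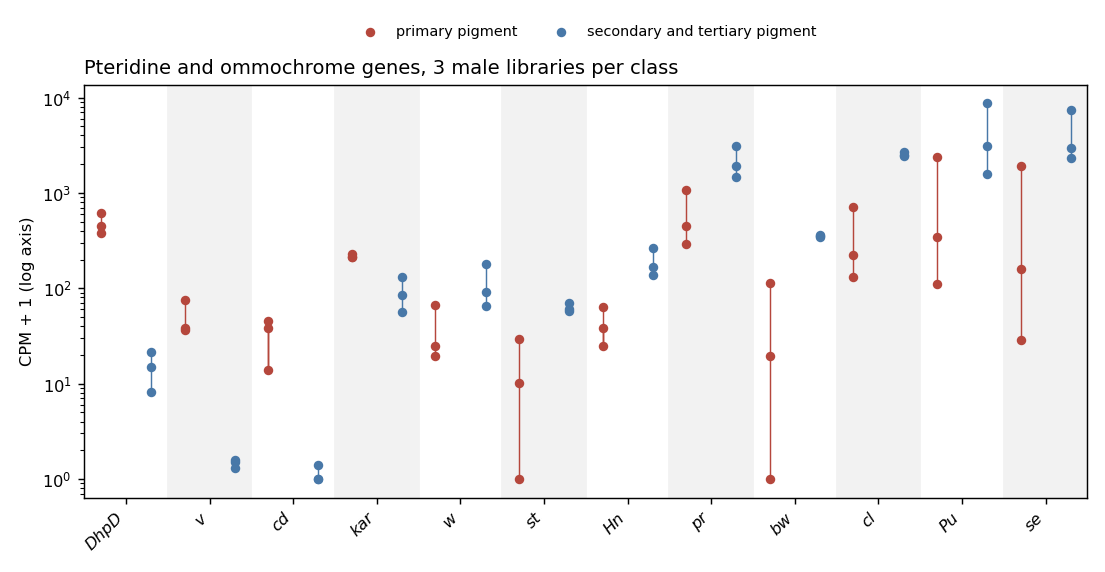
CPM plus 1 on a log axis for 12 genes of pteridine and ommochrome synthesis in primary pigment (red) and secondary and tertiary pigment (blue) cells, with 1 point for each male library and a line from the lowest to the highest. *DhpD*, *v*, *cd* and *kar* lie higher in primary pigment cells, and the red ranges of *bw*, *Pu* and *se* are wide, with the 1-day library at the top.

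Genes of the retinoid cycle were lower or alike. *santa-maria*, a scavenger receptor for carotenoid uptake, was at 257, 92.5 and 0 CPM in members of 1, 3 and 7 days, against 846.1, 1069 and 898.4 in secondary and tertiary pigment cells (-2.49 ± 0.51, adjusted p 7.0e-04). *ninaB*, the enzyme that cleaves carotenoids, was at 137.9, 31.5 and 37.0, against 350.4, 398.2 and 390.6 (-1.85 ± 0.36, adjusted p 4.2e-04), a call lost without the 3-day male library (-1.41, adjusted p 0.051). *pinta*, a retinoid-binding protein, was lower by 2.56 on the log2 scale. Of the 4 genes tested in this list of 6, 3 were thus lower, where 10.8% of all genes were, and only *ninaG* was not called. *rdhB*, described above, is not in this list.

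Among 20 transcription factors of eye cells, 16 were tested, 1 was higher (3 with RLE, 4 with DESeq2) and 3 were lower. The single higher gene is a share near the 6.70% of all genes, and 10.8% of all genes were lower. *sv*, the Pax2 factor that cone and primary pigment cells need to form, was at 119.1, 87.0 and 83.2 CPM in members, against 2.78, 0.940 and 2.95 in the other pigment cells (6.28 ± 0.40, adjusted p 7.1e-12). *hth*, a homeodomain factor, was at 15.7, 3.70 and 0, against 69.8, 70.5 and 93.7 (-2.77 ± 0.52, adjusted p 3.0e-04). *lz*, a Runx factor, had 2 UMIs in male members, a ratio of 0.0672 (exact interval 0.00812 to 0.244), and *Optix*, a homeodomain factor of eye specification, had 0 UMIs, at least 6.83-fold lower in CPM at the floor of 3 UMIs. *eya* and *gl*, which act throughout eye development, were not called (log2 fold changes -0.39 and -0.46, adjusted p 0.33 and 0.39). *neur*, a ubiquitin ligase of bristle lineages, was also higher, by 4.31 ± 0.52 (adjusted p 5.4e-07). In the list of 4 bristle and sheath genes *nompA*, which marks bristle sheath cells, was at 0 in every class.

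Adhesion genes changed in both directions. Of 15 tested, 4 were higher and 5 lower, where 6.70% of all genes were higher and 10.8% lower. *Fas3*, a homophilic adhesion protein, was at 272.7, 214.7 and 323.6 CPM in members, against 55.5, 84.9 and 104.9 in secondary and tertiary pigment cells (2.28 ± 0.28, adjusted p 8.7e-07), and *Nrt*, neurotactin, at 313.5, 74.0 and 221.9, against 5.56, 1.88 and 4.71 (6.22 ± 0.35, adjusted p 1.3e-12). *sns*, a nephrin-like protein, was called higher on 12 UMIs in male members, none of them at 3 days, against 4 in the other pigment cells, and *rst* and *kirre*, neph-like binding partners of this family, were lower by 2.10 and 2.33 on the log2 scale. *rst* was at 25.1, 14.8 and 0 CPM, against 87.9, 116.2 and 142.6. *kirre* had 3 UMIs in male members, a ratio of 0.133 (0.0272 to 0.391), and lost its call without the 1-day or 7-day male library (adjusted p 0.13 and 0.057), with members of at least 2 marker UMIs (0.11), with DESeq2 (0.094) and with 2 classes only (0.11). *Nrg* was higher by 1.58, and *Fas2* lower by 1.57, and both lost their calls without the 3-day male library (0.073 and 0.063), *Fas2* also after removal of 5% free RNA (0.13) and with 2 classes only (0.081). *klg*, with 1 UMI in male members and a ratio of 0.0473 (0.00119 to 0.265), lost its call without the 1-day or 3-day male library (0.064 and 0.059).

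Genes of the Toll immune pathway were a further group with many higher calls. Of 37 genes listed, 23 were tested, and 10 were higher and 1 lower, where 6.70% of all genes were higher and 10.8% lower. The median log2 fold change of 0.83 lay 1.21 above that of all genes. Against cone cells, whose gate did not bar primary pigment markers, 3 of the 23 (*grass*, *BomS3* and *BomT3*) were higher and 20 were not called. The share of all genes higher than in cone cells was 3.84%. With cone cells of at most 2 marker UMIs, a limit on genes of the rule, 13 were higher, and 481 over all genes. Summed over the list, members held 3266, 4385 and 4992 CPM in males of 1, 3 and 7 days and 2821 in females. Secondary and tertiary pigment cells held 4191, 3826 and 2292 in males and 4921 in females, more than members in both libraries of 1 day. Another 12 were not called, among them *modSP*, *Hayan*, *spz*, *Tl*, *PGRP-SA* and *GNBP1* (adjusted p 0.55 to 0.97). Of the serine proteases that act before the ligand Spätzle, *grass* was at 426.3, 551.5 and 721.2 CPM in members of 1, 3 and 7 days, against 114.8, 127.2 and 230.3 in secondary and tertiary pigment cells (2.44 ± 0.33, adjusted p 4.4e-06). *SPE*, the Spätzle-processing enzyme, was at 112.9, 199.9 and 369.8, against 15.7, 7.52 and 7.07 (4.75 ± 0.40, adjusted p 1.3e-09). *spirit* and *psh* were higher by 5.66 and 4.17, and *nec*, a serpin that restrains the pathway, by 1.83. Of the secreted Bomanin peptides, *BomS1* was at 344.8, 429.4 and 1202, against 106.3, 63.3 and 37.1 (3.59 ± 0.46, adjusted p 1.9e-06), and *BomBc1*, *BomT1* and *BomS4* were higher by 4.71, 2.13 and 1.64. *BomS4* lost its call with DESeq2 and without the 3-day or 7-day male library (adjusted p 0.29 and 0.14), and *BomT1* without the 7-day male library (0.071). After removal of 5% free RNA *nec* and *BomS4* lost their calls (0.19 and 0.13), and *BomS4* also without a library term (0.21). *BomT3* was at 1539, 2384 and 1627, against 2462, 2780 and 1253, and was not called (adjusted p 0.37). *Dro*, the antibacterial peptide drosocin, was lower by 3.10 on the log2 scale. Of 6 marker genes of haemocytes and 8 of fat body, the cells best known for immune peptides, 5 and 5 were at 0 in all members. Of the 1 and 3 that could be tested, 0 were called higher with edgeR or DESeq2, and 0 were higher at an unadjusted p under 0.05. The summed haemocyte markers reached 27.8 to 69.7 CPM in members by library, against 61.9 to 112 in secondary and tertiary pigment cells, and those of fat body 9.25 to 75.2, against 89.6 to 323.9.

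Odorant-binding proteins, small carriers of hydrophobic ligands, were few. Of 20 listed, the marker *Obp83cd* among them, 6 could be tested. Of these 3 were higher and 1 lower, where 6.70% of all genes were higher and 10.8% lower. *Obp57b* was at 178.7, 373.9 and 545.5 CPM in members, against 2.06, 2.51 and 1.77 in secondary and tertiary pigment cells (7.60 ± 0.49, adjusted p 7.1e-12). *Obp57a* had 12 UMIs in male members and 0 in the other pigment cells, at least 60.4-fold higher in CPM at the floor. *Obp19d* was at 250.8, 731.1 and 1008, against 208.4, 324.6 and 360.5 (1.5 ± 0.39, adjusted p 0.0065), a call lost after removal of 5% free RNA (1.46, adjusted p 0.15). *Obp44a*, by contrast, was at 43.9, 20.4 and 9.25, against 363.5, 210.2 and 932 (-3.21 ± 0.41, adjusted p 1.7e-06).

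Of 13 tested genes of water and ion transport, 4 were higher and 3 lower, where 6.70% of all genes were higher and 10.8% lower. The median log2 fold change of the list, relative to that of all genes, was -0.08. Beside *SecCl*, the aquaporin gene *Drip* was at 247.6, 157.3 and 379.1 CPM in members, against 21.6, 8.15 and 6.48 (4.81 ± 0.36, adjusted p 1.4e-10), and its relative *Eglp4* at 1132, 1475 and 970.8, against 381.3, 283.8 and 195 (2.53 ± 0.42, adjusted p 7.0e-05). The call of *Eglp4* was lost after removal of 5% free RNA (2.18, adjusted p 0.31). The potassium channel genes diverged. *Irk1* had 8 UMIs in male members and 0 in secondary and tertiary pigment cells, at least 40.2-fold higher in CPM at the floor, whereas *Irk2* was at 200.6, 38.9 and 0, against 930.2, 694.3 and 651 (-2.82 ± 0.49, adjusted p 1.2e-04). *nrv3*, a subunit of the sodium pump, and *ine*, a transporter of the neurotransmitter symporter family, were lower by 1.57 and 1.51. *nrv3* lost its call without the 3-day male library (adjusted p 0.12), after removal of 5% free RNA (0.32) and without a library term (0.074). *ine* lost its call without the 1-day or 3-day male or the female library (0.19, 0.24 and 0.058), with RLE and DESeq2 (0.074 and 0.14), with 2 classes only (0.13), with cells of at least 1000 UMIs (0.06), after removal of 5% free RNA (0.068) and without a library term (0.055).

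Photoreceptor and glia markers had no higher call in the members. Of 19 tested genes of phototransduction, 0 were higher (edgeR and DESeq2, 0 at an unadjusted p under 0.05) and 8 lower than in secondary and tertiary pigment cells (5 lower with RLE and 1 with DESeq2), where 10.8% of all genes were lower with edgeR, 6.99% with RLE and 6.01% with DESeq2. The single gene with DESeq2 is a share near that background. Their summed level was 1655 to 4508 CPM in members by library, against 7682 to 12300 in secondary and tertiary pigment cells and 308900 to 390900 in R1-6. Of 7 tested glia markers, 0 were higher (edgeR and DESeq2, 0 at an unadjusted p under 0.05) and 4 lower (2 with RLE and 1 with DESeq2), at a summed 1433 to 2298 CPM in members, against 5403 to 6441 in secondary and tertiary pigment cells. Of the bristle and sheath genes, by contrast, *neur* and *sv* were higher, and the cone marker *CG5597*, with 37 UMIs in male members, had a ratio of 10.9 to the other pigment cells (exact interval 6.97 to 17, with no test). A set of 11 further primary pigment genes was all higher, at a median log2 fold change of 7.47, but this set was chosen on these same libraries and is no independent evidence.

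Higher genes often lay side by side in the genome. Of the 443 higher genes that could be placed on the annotation (BDGP6.54, with dm6 coordinates), 95 (21.4%) had a neighbouring protein-coding gene that was also higher, whereas 5.46% of the 6140 other tested genes lay beside a higher gene. For lower genes the shares were 14.7% and 11.7%. *Nplp3* (3L:16318024-16318690, plus strand) was followed by *CG13041* and *CG13060* in a run that ended at 16320454, and *retinin* (3L:16331933-16332789, plus strand) lay between *CG33060* and *CG13056* at 3L:16331040-16333782. *Pdh* lies in the same region (3L:16353233-16354297, minus strand). The Bomanin genes *BomT1*, *BomBc1*, *BomS1* and *BomS4* formed a run at 2R:18381393-18384911. *CG13841*, *CG43091*, *CG43092* and *CG43093* formed a run at 3R:22766732-22770307. *CG43092* was at 313.5, 914.3 and 970.8 CPM in members, against 3.71, 5.95 and 10.6 in secondary and tertiary pigment cells. *CG10553* opened a run of 5 genes at 3R:25316461-25331203. Whether neighbouring genes share reads was not tested. Among lower genes, *se* lay between *GstO3* and *GstO2* (3L:8518885-8523501), glutathione S-transferases of the same family.

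Against cone cells, 254 genes (3.84%) were higher and 255 (3.85%) lower in primary pigment cells. This comparison rested on few cone cells, and the cone gate did not bar primary markers. Cone cells with at most 2 marker UMIs held 70102, 18929 and 17900 UMIs in males of 1, 3 and 7 days. All cone cells of these libraries held 155449, 249356 and 57233 UMIs, so most of the cone RNA came from cells with more marker UMIs. Without the 1-day male library 87 genes were higher and 94 lower, and without the 3-day male library 99 and 128. After removal of 5% free RNA 39 were higher, and without a library term 52 were higher and 141 lower. In the 3-day male library 13 of the 21 cone cells had at least 5% of their UMIs from *retinin*, as did 9 of 35 at 1 day and 3 of 15 at 7 days. *retinin* was higher in primary pigment cells by only 1.42 ± 0.41 (adjusted p 0.031) and *Nplp3* by 1.29 ± 0.38 (adjusted p 0.034), and both calls were lost without the 3-day or the 7-day male library (adjusted p 0.052 and 0.24 for *retinin*, 0.061 and 0.29 for *Nplp3*), that of *retinin* also without the 1-day (0.059) and that of *Nplp3* without the female library (0.055). Both were also lost with cells of at least 1000 UMIs (0.18 and 0.21), after removal of 5% free RNA (0.73 and 0.71), without a library term (0.21 and 0.25) and with sums of at least 1 cell (0.25 and 0.24), and that of *Nplp3* with members of at least 2 marker UMIs (0.052). Cone cells were also limited to at most 2 marker UMIs, a limit set after the data were seen. This left 27 and 12 cells in the 1-day and 7-day male libraries, the 8 cells at 3 days being too few. *retinin* was then higher by 7.14 (adjusted p 1.5e-08) and *Nplp3* by 6.81 (3.4e-08). The limit uses the 4 genes that chose the members, so cone cells that share this RNA with members are left out by construction. Higher values against these stricter cone cells are therefore no independent evidence. *Crys* and *dpy* were not called in either version. *Crys* was at 2125, 540.4 and 490 CPM in primary pigment cells, against 4040, 1127 and 1258 in cone cells, with a log2 fold change of -0.26 ± 0.38 (adjusted p 0.76), and 0.79 (adjusted p 0.33) against the stricter cone cells. *dpy* gave -0.61 ± 0.35 (adjusted p 0.33) and -0.22 (adjusted p 0.83), and *sv* -0.97 ± 0.32 (adjusted p 0.069) and -0.69 (adjusted p 0.39). *obst-E* and *Gasp*, not called in the first version at 0.75 and 1.03, were higher than in the stricter cone cells by 2.13 and 2.65 (adjusted p 2.6e-04 and 0.0023).

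Some genes were lower than in both versions of the cone cells. *qsm* was at 28.2, 35.2 and 18.5 CPM in primary pigment cells, against 636.9, 300.8 and 174.7 in cone cells (-2.82 ± 0.38, adjusted p 2.2e-05). *Fas3* was at 272.7, 214.7 and 323.6, against 2026, 854.2 and 2097 (-1.68 ± 0.28, adjusted p 3.5e-04), and *CadN*, N-cadherin, at 6.27, 7.40 and 0, against 238, 76.2 and 157.3 (-3.58 ± 0.56, adjusted p 1.3e-04). Against the stricter cone cells the 3 genes gave -2.93, -1.78 and -3.54. *qsm* and *Fas3* were not called against cone cells chosen without the *CG5597* criterion (-1.21 and -0.67, adjusted p 0.15 and 0.085), nor *Fas3* after removal of 5% free RNA (0.096). *Fas3* thus had an intermediate level in primary pigment cells, above the other pigment cells and under the cone cells in every male library. The genes most lowered against cone cells were *rgn* and *Acox57D-p*, an acyl-CoA oxidase, with 0 UMIs in members and at least 65.6- and 30.0-fold lower in CPM at the floor, and *CG17211*, *CG13931* and *bond*, a fatty acid elongase. With 2, 2 and 1 UMIs in male members, these had ratios of 0.00292 (exact interval 0.000352 to 0.0106), 0.00555 (0.000667 to 0.0204) and 0.00497 (0.000125 to 0.0284). The call of *Acox57D-p* was lost against cone cells chosen without *CG5597* (adjusted p 0.068).

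The genes most raised against cone cells were *Cyp6a23*, *Prx2540-1*, a peroxiredoxin, *CG30050*, *CG15201* and *AGBE*, the glycogen branching enzyme, all with 0 to 6 UMIs in cone cells. *Cyp6a23* had 24 UMIs in male members and 0 in cone cells, at least 3.82-fold higher in CPM at the floor. Against cone cells chosen without the *CG5597* criterion, *Cyp6a23* was at a log2 fold change of 0.10 (adjusted p 0.94) and *AGBE* at 1.47 (0.064), and *CG15201* turned to -5.50 (1.1e-04). *Prx2540-1* was at 150.5, 155.5 and 9.25 CPM, against 19.3, 12.03 and 0 (4.15 ± 0.63, adjusted p 8.9e-05). *CG30050* and *AGBE* had ratios of 7.64 (2.46 to 38.4) and 6.37 (2.03 to 32.2). *CG30050*, *CG15201* and *AGBE* were lower in primary than in secondary and tertiary pigment cells, and against cone cells they were not called in members under 1% *fabp* (adjusted p 0.34 to 1) or with at least 5 marker UMIs (0.14 to 0.20). After removal of 5% free RNA *CG30050* and *CG15201* lost their calls (0.051 and 0.42), without a library term *CG30050* and *Prx2540-1* (0.14 and 0.24), with cells of at least 1000 UMIs *CG15201* (0.053), and against cone cells with at most 2 marker UMIs *AGBE* (0.10). Without the 1-day male library *Cyp6a23*, *CG30050* and *CG15201* lost their calls against cone cells (adjusted p 0.054, 0.21 and 0.32). *Cpr72Ec* and *verm*, the lens list genes beside *retinin* that were higher than in cone cells (3.17 and 4.04), also lost their calls without it (0.062 and 0.41), in members under 1% *fabp*, with at least 5 marker UMIs, after removal of 5% free RNA, without a library term and without the *CG5597* criterion (0.054 to 0.75). *Cpr72Ec* lost its call also without the 3-day male library (0.26), with cells of at least 1000 UMIs (0.13), with DESeq2 (0.068) and against cone cells with at most 2 marker UMIs (0.22).

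Against R1-6, 1453 genes (21.9%) were higher and 1948 (29.4%) lower. *CG5397* and *CG9451*, absent from R1-6 in males, were at least 994- and 592-fold higher in CPM at the floor, and *CG33784*, with 3 UMIs in R1-6, had a ratio of 3170 (exact interval 1070 to 15600). *CG7906* and *Nplp3* were higher by 10.8 on the log2 scale. Photoreceptor genes had 0 UMIs in male members: *dysc*, *Pph13*, a homeodomain factor of photoreceptors, *Calx*, the sodium-calcium exchanger of the light response, *CG13305* and *rdgC*, the rhodopsin phosphatase, were at least 156-, 128-, 115-, 112- and 88.8-fold lower in CPM. The calls of these 10 genes held under each alternative run and without each library in turn. All 19 tested phototransduction genes were lower, also under each of these alternatives. Over the 3 comparisons 60 genes were higher and 16 lower in primary pigment cells than in all 3 classes, and 280 were higher than in secondary and tertiary pigment and R1-6 cells without being called against cone cells. The cone cells of these counts are those whose gate did not bar primary pigment markers.

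Levels in primary pigment cells differed between the male libraries of 1, 3 and 7 days. With 1 library of each age these differences have no replicate, and age and library cannot be told apart, so they are given as values with exact Poisson intervals for counting error only. Among 1251 genes with at least 20 UMIs in the 1-day and 7-day members together, the 5 largest ratios of 7 days over 1 day were those of *CG34331*, *CG5597*, *CG9336*, *Tina-1* and *CG30082*. *CG34331* was at 379.1 CPM at 7 days and 18.8 at 1 day (ratio 20.2, interval 8.51 to 58.1), with 28 of its 41 UMIs at 7 days from 1 cell. *CG9336* was at 536.3 and 59.6 (ratio 9.004, 5.284 to 16.01) and was seen in 16 of 20 members at 7 days and 8 of 44 at 1 day. *Tina-1* and *CG30082* had ratios of 8.85 (4.84 to 17.1) and 8.46 (5.20 to 14.3), against 0.507 and 2.34 in secondary and tertiary pigment cells. *CG5597*, the cone marker, came from 4 members at 7 days, at 212.7 CPM.

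The 5 smallest ratios were those of *CG13071*, *CG13077*, *Cpr49Ag*, *GstE14* and *IM33*, at 18.5, 0, 0, 0 and 0 CPM at 7 days, against 1994, 614.4, 802.5, 548.6 and 457.7 at 1 day. The floor of 3 UMIs at 7 days was 27.7 CPM. *CG13071* was at 18.5 at 7 days and 1341 at 1 day also in members under 1% *fabp*, and at 565.6 and 4435 in secondary and tertiary pigment cells. *Cpr49Ag*, a cuticular protein, was at 393.4 in the 1-day members under 1% *fabp*. *CG13077* and *GstE14* were abundant in secondary and tertiary pigment cells at both ages, at 1594 and 1338 at 7 days and 2448 and 2561 at 1 day. In 1-day members under 1% *fabp* they were at 29.6 and 63.5 only. For *IM33*, 138 of 146 UMIs came from a single 1-day member of 13659 UMIs with 3.16% *fabp*. The age differences of *CG13077*, *GstE14* and *IM33* thus moved with the *fabp*-rich members, whose part in them was not tested.

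Of 55 list genes with at least 20 UMIs at 1 and 7 days in all members and in members under 1% *fabp*, 48 had a ratio of 7 days over 1 day on the same side of 1 in both, and *Fas3*, *Gs2*, *Idgf6*, *PGRP-SB1*, *cl*, *kar* and *nrv1* did not. *Crys* was at 490 CPM at 7 days and 2125 at 1 day (ratio 0.231, 0.171 to 0.305), with 2826 at 1 day in members under 1% *fabp* (ratio 0.173). *Crys* varied widely among 1-day members, 1 of which held 256 of its 678 UMIs, and 12 of which held none. *dpy* was at 822.9 and 1564 (ratio 0.526, 0.415 to 0.660). Of 13 genes with enough UMIs in the Toll and odorant-binding lists, the interval of the ratio lay above 1 for 9 and under 1 for *BomS3*. The 9 include *Obp83cd*, which the rule used to choose the members, and no test was made. Over all lists together 65 genes had enough UMIs, with the interval above 1 for 14 and under 1 for 25. The 65 genes include these 13 and come from chosen lists, so they are no background for the count of 9. No such share is given over all genes with at least 20 UMIs, and whether 9 of 13 exceeds it was not tested. *BomS1* stood at 344.8, 429.4 and 1202 CPM at 1, 3 and 7 days, *SPE* at 112.9, 199.9 and 369.8, *Obp57b* at 178.7, 373.9 and 545.5 and *Obp19d* at 250.8, 731.1 and 1008. The ratios of 7 days over 1 day were 3.49 (2.68 to 4.54), 3.28 (2.04 to 5.29), 3.05 (2.09 to 4.47) and 4.02 (2.98 to 5.43). In members under 1% *fabp* they were 2.93, 2.50, 2.35 and 4.41. In secondary and tertiary pigment cells the same ratios were 0.349 for *BomS1*, 0.452 for *SPE*, 0.858 for *Obp57b* and 1.73 for *Obp19d*, so *BomS1* and *SPE* had opposite directions in the 2 classes, a difference that 1 library for each age does not allow to be tested.

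**Figure D4:**
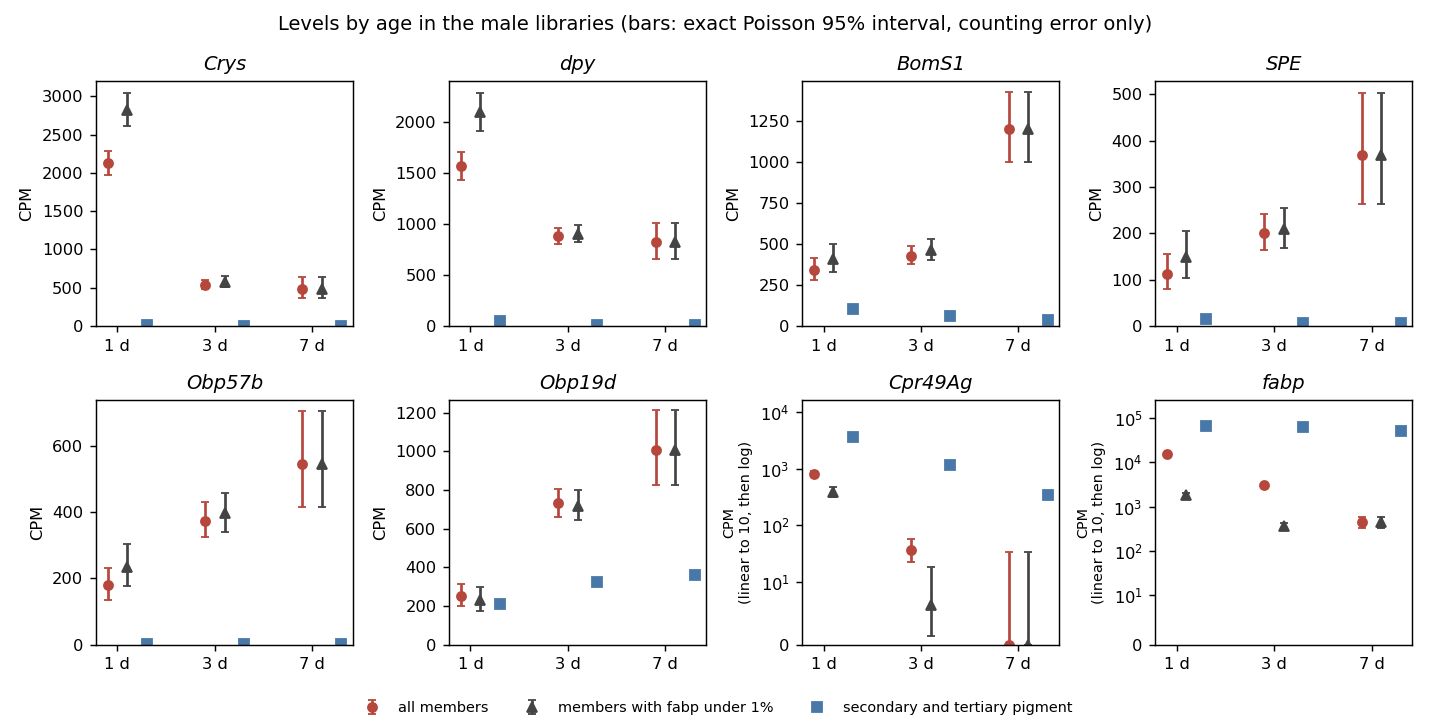
CPM of 8 genes in male primary pigment cells of 1, 3 and 7 days, for all members (red circles) and members with *fabp* under 1% (black triangles), with exact Poisson 95% intervals, beside secondary and tertiary pigment cells (blue squares). The axes of *Cpr49Ag* and *fabp* are linear to 10 and logarithmic above. *Crys* and *dpy* are highest at 1 day and *BomS1*, *SPE*, *Obp57b* and *Obp19d* at 7 days, and *fabp* in all members is at 15180 at 1 day and 443.8 at 7 days.

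The 1-day female library held only 3 members, of 3650, 7708 and 17358 UMIs, the second of them with 6.56% *fabp* and 0.234% *retinin*. Summed, they had 305700 CPM of *retinin*, against 324500 in 1-day males, and 487.5 of *Crys*, against 2125. Among 1071 genes with at least 20 UMIs over the 2 libraries, the largest female-over-male ratios were those of *CG11825* (13.6, interval 6.95 to 26.9), *Prx2540-2* (9.09, 3.33 to 24.1), *Prx2540-1* (7.87, 4.92 to 12.5), *mt:ND6* (7.30, 4.92 to 10.7) and *mt:ND3* (7.14, 4.23 to 11.9). The same ratios in secondary and tertiary pigment cells, with 915 female and 3736 male cells, were 6.27, 5.07, 9.23, 4.60 and 5.00, so these 5 differences lay between the libraries in both classes. *CG16713*, *Cyp4p1*, *IM33*, *Nrt* and *Rh6* had 0 UMIs in the female members, which allows up to 104.5 CPM, against 297.8, 285.3, 457.7, 313.5 and 216.3 in 1-day males. Of the male UMIs, 91 of 95 for *CG16713* and 54 of 69 for *Rh6*, a rhodopsin of R8 photoreceptors, came from 1 cell each. *Nrt* was seen in 63.6% of the 1-day male members, and 0 UMIs in 3 female cells cannot be told apart from chance in which cells were caught.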

How the data were processed

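Eyes were dissociated and sequenced on the 10x Genomics Chromium platform, with 1 library for each of 4 groups. With Cell Ranger 6.0.1 and the dm6 genome the authors made tables of UMI counts, deposited as whole numbers over 13964 genes, neither normalized nor cleared of free RNA. Strand was not stated for the counting. Here cells with over 200 genes and under 20% mitochondrial UMIs were kept, classes were set by the gates given above, and counts were summed over a class in each library where it had at least 10 cells. The 14 sums were fitted together in edgeR 4.0.16 (R 4.3.3) with TMM, filterByExpr, library as a term and the quasi-likelihood test with Benjamini-Hochberg adjustment over all genes tested. Primary pigment sums came from the 3 male libraries of different ages, and p-values measure the spread over all 14 sums, 2 of them female. Other values used Python 3.11.15 and SciPy 1.17.1, figures matplotlib 3.10.9. The fit was tested on simulated data.

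Members, classes and gene lists were chosen with earlier results of these data known. Named genes were the 10 highest and 5 lowest log2 fold changes against secondary and tertiary pigment cells, 5 each way against cone and R1-6 cells, among called genes with the same direction in every male library and at least 20 UMIs in the higher class, the 10 genes with the highest levels, the called or most abundant list members, and the 5 largest ratios each way by age and sex. *CG1561*, *CG6870* and *CG43092* were picked after their values were seen. Alternatives were other marker and *Pdh* limits, the study's limits on cells, at least 1000 UMIs, removal of 5% free RNA, RLE factors, DESeq2 1.42.0, no filter, 2 classes only, no library term, cone cells without the *CG5597* criterion, and each library left out. Sums of at least 1 cell, cone cells with at most 2 marker UMIs and members under 1% *fabp* were added after seeing the data. Columns of gene names and barcodes served as labels.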

Additional observations from a re-analysis of the deposited data

Results flagged for a closer look

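*IM33*, an immune-induced gene, and *CG16713* lay on opposite sides of the other pigment cells in 2 libraries. The TMM-scaled ratio of primary over secondary and tertiary pigment cells was 9.5 in the 1-day and 0.0839 in the 3-day male library for *IM33*, and 7.73 and 0.0903 for *CG16713*. The difference between the libraries was not tested, since each age has 1 library. In the 1-day library 138 of 146 UMIs of *IM33* and 91 of 95 of *CG16713* came from a single member of 13659 UMIs, in which *fabp* made up 3.16%.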

How the results depend on the processing

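The classes compared came from the same libraries, so each contrast was paired by library, which was a block in the fit. For genes higher and lower than in secondary and tertiary pigment cells (444 and 717), 463 were lower with RLE, 398 with DESeq2 and 370 with 2 classes only, and libraries left out gave 271 to 455 and 265 to 617, the lowest without the 3-day male library. Against cone cells (254 and 255), higher genes numbered 161 with at least 5 marker UMIs, 116 with at least 1000 UMIs a cell, 39 with free RNA removed, 124 with 2 classes only, 52 without a library term, 511 without the *CG5597* criterion and 481 with cone cells of at most 2 marker UMIs. Lower genes numbered 141 without a library term and 531 without the *CG5597* criterion, and libraries left out gave 87 to 254 and 94 to 253. Against R1-6 they gave 1192 to 1452 and 1517 to 1862. Members in the 1-day male library numbered 61 with at least 2 and 26 with at least 5 marker UMIs. The left-out markers stayed called, at 8.41 to 9.54, 8.49 to 8.64, 7.48 to 7.66 and 9.05 to 9.55 for *wrapper*, *sxe2*, *CG31199* and *Obp83cd*. *CG15201* turned to -5.50 against cone cells chosen without *CG5597*. *IM33* ranged over -3.92 to 2.48 and *CG16713* over -3.66 to 2.22 with a library left out, negative without the 1-day male library, and *CG16713* was at -2.0 with at least 5 marker UMIs and -2.24 under 1% *fabp*. Of 83 genes named as called against secondary and tertiary pigment cells, 68 stayed called with 5% free RNA removed, 71 without a library term, 77 with DESeq2 and 83 under 1% *fabp*. The causes were not tested.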
